A study of Mus musculus with 6 samples.

Results

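The major urinary proteins (MUPs) are small lipocalins that hepatocytes secrete into the blood and that pass into the urine, where they carry pheromones. Their genes form a cluster of near-identical copies on mouse chromosome 4, and their expression in liver is known to be higher in males than in females and to depend on the pulsatile release of growth hormone, which acts through STAT5B. The cluster also holds more diverged genes, among them *Mup20*, which encodes the pheromone darcin, and *Mup3* and *Mup21*. The genes described here are *Mup1*, *Mup2*, *Mup3*, *Mup7*, *Mup10*, *Mup11*, *Mup17*, *Mup20*, *Mup21* and *Mup22*, which were chosen by name. They are 10 of the 56691 genes of the deposited table, and all 10 were found in it. The table holds 12 other protein-coding *Mup* genes and 27 *Mup* pseudogenes.

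The comparison was between the livers of 3 KPF dams (replicates 1 to 3) and 3 WPF dams (replicates 2 to 4), and it asks how the loss of hepatocyte ChREBP changes the liver of the pregnant dam. ChREBP, encoded by *Mlxipl*, is a transcription factor that responds to sugar. KPF dams were h*Chrebp* KO mice, which carry *Chrebp* flox/flox and Alb-Cre, so that exon 2 of *Mlxipl* is removed in cells that express albumin. WPF dams were *Chrebp* flox/flox mice without Cre, which the sample labels call WT. The floxed line was made and bred on C57BL/6J, every dam was mated with a *Chrebp* flox/flox male, and every dam received HFrD (70% fructose, 10 kcal% fat) from Day 0 until the liver was taken on Day 17. Pregnancy and HFrD were therefore shared by both groups, no unmated female, male or chow-fed dam is part of the comparison, and the age of the dams is not given in the sources used here. Cre was carried by KPF dams only, so Cre and the deletion cannot be told apart.

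The libraries held between 10694496 and 14496630 counted reads, with no overlap between the groups, since the KPF libraries were the smaller ones. Levels are given as CPM, which are counts scaled to a common library size with edgeR's TMM factors and serve to compare 1 gene between libraries, or as the deposited FPKM, which are also scaled by exonic length and serve to compare genes. For *Mlxipl*, KPF replicates 1, 2 and 3 held 179, 700 and 849 CPM, and WPF replicates 2, 3 and 4 held 961, 1260 and 879 CPM. The groups did not overlap, but KPF replicate 3 lay close to WPF replicate 4, and the log2 fold change of -0.84 ± 0.53 (SE) did not pass edgeR's quasi-likelihood test (adjusted p = 0.584). These counts cover the whole gene and not exon 2 alone. WPF replicate 4 also stood apart from the other WPF libraries in *Fasn*, the fatty acid synthase gene, with 241 CPM against 2540 and 2085 CPM, while the KPF libraries held 147 to 176 CPM. Results that rest on this library are given with and without it. *Alb* and the other 11 hepatocyte markers all had a mean FPKM above the minimum of 1, so the defining markers of liver tissue were present.

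The sequences of the *Mup* genes bear on every value below, because reads from near-identical copies cannot be assigned with certainty. By coding sequence (GENCODE M21 transcripts), *Mup1*, *Mup2*, *Mup7*, *Mup10*, *Mup11*, *Mup17* and *Mup22* were 98.3% to 99.6% identical to each other and at most 91.3% identical to the other members. *Mup3* and *Mup21* were 94.7% identical to each other, and *Mup20* was between 86.6% and 91.3% identical to every other member. The 60 coding bases with the most distinct versions among the members are shown, since they make these groups visible. They lie across exons 2 and 3, at coding positions 212 to 271 in *Mup1*, *Mup2*, *Mup7*, *Mup10* and *Mup17*, 215 to 274 in *Mup11*, *Mup20*, *Mup21* and *Mup22* and 224 to 283 in *Mup3*. Capitals mark the bases that differ from the most common base among the 10 members.
Mup10: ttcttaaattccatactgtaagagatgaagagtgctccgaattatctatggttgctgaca
Mup22: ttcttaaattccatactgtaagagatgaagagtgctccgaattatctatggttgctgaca
Mup1: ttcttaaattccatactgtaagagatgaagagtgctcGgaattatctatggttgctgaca
Mup11: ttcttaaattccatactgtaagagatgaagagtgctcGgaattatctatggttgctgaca
Mup7: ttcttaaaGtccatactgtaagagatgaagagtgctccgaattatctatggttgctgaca
Mup17: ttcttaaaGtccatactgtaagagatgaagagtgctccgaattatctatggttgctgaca
Mup20: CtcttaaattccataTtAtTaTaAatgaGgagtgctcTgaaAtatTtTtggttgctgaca
Mup21: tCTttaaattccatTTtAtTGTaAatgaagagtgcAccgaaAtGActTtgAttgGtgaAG
Mup3: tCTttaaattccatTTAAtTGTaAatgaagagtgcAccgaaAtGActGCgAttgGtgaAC
*Mup2* has the same 60 bases as *Mup1* and *Mup11*, so the 10 members hold 6 distinct versions with 25 variable positions. The near-identical genes differ from the most common version at no more than 1 base here, against 11 in *Mup20*, 18 in *Mup21* and 20 in *Mup3*.

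**Figure D1:**
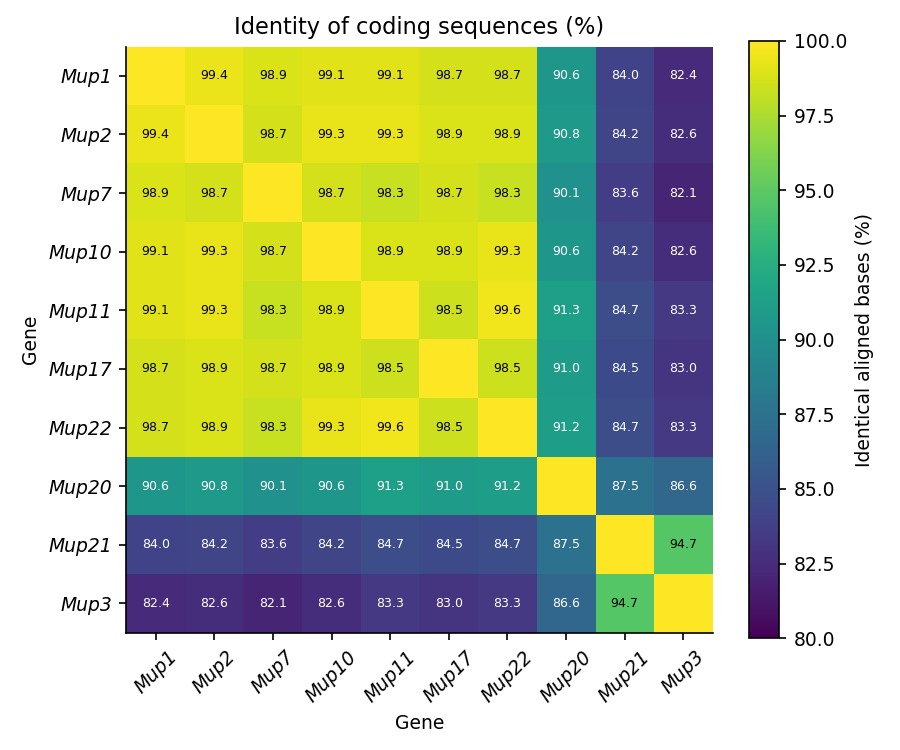
Identity of coding sequences between each pair of the 10 *Mup* genes, in percent of aligned bases, with both axes listing the genes and colour giving the identity. The 7 near-identical genes form the bright square with 98.3% to 99.6% identity, *Mup3* and *Mup21* pair at 94.7%, and *Mup20* stands between both groups.

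The length of sequence that a read could place in 1 gene only followed the same groups. Of the 150-base windows of its transcript, the length of 1 read of a pair, every window of *Mup3* and of *Mup21* was found in no other gene. *Mup20* had 68.9% of such windows and *Mup17* 59.6%. *Mup7* had 22.5%, *Mup11* 21.8%, *Mup1* 17.5%, *Mup10* 15.6% and *Mup2* 9.25%, whereas *Mup22* had none, and a single window could be shared with up to 14 other genes. How the counting treated reads that fit several copies is not given in the sources used here, so the single values of the 7 near-identical genes are uncertain, and their sum is given beside them. The mean counted reads of a library were 5140.5 for *Mup3*, 1543.3 for *Mup17*, 337.2 for *Mup21* and 239.0 for *Mup20*, the 4 members with the most sequence of their own, and between 1.7 and 111.8 for the other 6. Own sequence did not by itself come with many reads, since *Mup4*, *Mup5* and *Mup6*, protein-coding *Mup* genes whose windows were found in no other gene either, had 0.0, 1.2 and 0.2 reads.

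**Figure D2:**
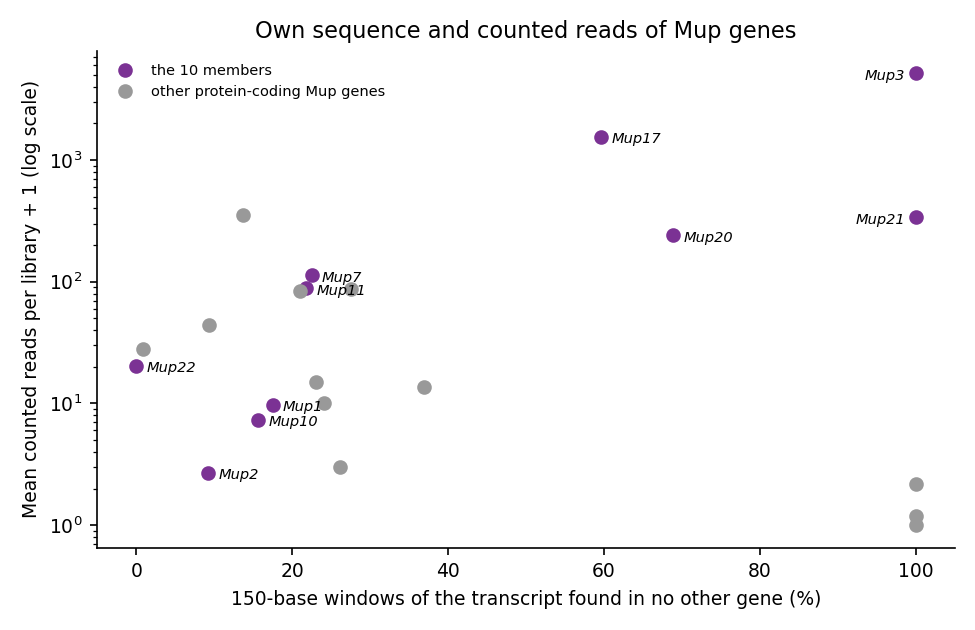
Share of the 150-base windows of each *Mup* transcript that were found in no other gene (x axis, percent) against the mean counted reads of a library plus 1 (y axis, log scale), with the 10 members in purple and the other protein-coding *Mup* genes in grey. The 4 members above 50% hold the most reads among the members, and 3 other genes at 100% hold almost none.

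The most expressed member was *Mup3* (chr4:62001713-62005579, minus strand, GRCm39, as for all positions of the deposited table). Its deposited FPKM were 216, 359 and 437 in KPF replicates 1, 2 and 3 and 237, 547 and 496 in WPF replicates 2, 3 and 4, with a mean of 337 ± 112 (SD, n = 3) in KPF and 426 ± 166 in WPF. The groups overlapped, with 1 low library in each. The log2 fold change was -0.16 ± 0.38 (SE), and neither edgeR (adjusted p = 0.892) nor the exact two-sided permutation test (p = 0.7) separated the groups. Its sign turned without KPF replicate 1, at 0.09, and without WPF replicate 3, at 0.05.

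Second in every library was *Mup17* (chr4:61510166-61514108, minus strand), which holds most reads of the near-identical group. It was counted at 185, 165 and 171 CPM in the KPF libraries (replicates 1, 2 and 3), against 32.9, 85.4 and 122 CPM in the WPF libraries (replicates 2, 3 and 4). Every KPF library was above every WPF library, the KPF libraries lay close together, and the WPF libraries were spread over a wide range. The mean was 174 ± 10.4 CPM (SD, n = 3) in KPF and 80.1 ± 44.7 CPM in WPF, a 2.17-fold higher level in KPF (log2 1.12 ± 0.44 SE). In edgeR this gave an adjusted p = 0.444 (unadjusted, 0.0363). The unadjusted p was above 0.05 without KPF replicate 1 (0.0756), without KPF replicate 3 (0.0662) and without WPF replicate 3 (0.0749), with plain library totals (0.105) and by limma on log2(FPKM + 1) (0.0573), while the log2 fold change without each library in turn stayed between 0.74 and 1.54.

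*Mup7* (chr4:60066469-60070475, minus strand) had 415, 83 and 83 counted reads in KPF replicates 1, 2 and 3 and 11, 13 and 66 reads in WPF replicates 2, 3 and 4. Scaled, these are 39.5, 7.34 and 7.97 CPM in KPF against 0.951, 0.913 and 3.87 CPM in WPF. The groups did not overlap, KPF replicate 1 was far above the other KPF libraries, and WPF replicate 4 was above the other WPF libraries. The level was 9.34-fold higher in KPF (log2 3.22 ± 0.87 SE), with an adjusted p = 0.430 in edgeR (unadjusted, 0.00637). The log2 fold change was 1.97 without KPF replicate 1 and 4.27 without WPF replicate 4.

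A similar picture was seen for *Mup11* (chr4:60614465-60618410, minus strand), with 99, 115 and 210 reads in KPF and 9, 8 and 81 reads in WPF. In the same order of replicates, its levels were 9.43, 10.2 and 20.2 CPM against 0.778, 0.562 and 4.74 CPM. All KPF libraries were above all WPF libraries, and WPF replicate 4 again was the nearest to them. The mean was 13.3 ± 6.00 CPM (SD, n = 3) in KPF and 2.03 ± 2.35 CPM in WPF, a 6.37-fold difference (log2 2.67 ± 0.79 SE, unadjusted p = 0.0101 and adjusted p = 0.430 in edgeR). Without WPF replicate 4 the log2 fold change was 4.28, and leaving out any other library gave at least 2.23.

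By DESeq2 on the same counts and the same genes, *Mup7* (adjusted p = 0.00314) and *Mup11* (adjusted p = 0.0204) passed an adjusted p under 0.05 and were higher in KPF, and *Mup17* did not (adjusted p = 0.238). DESeq2 called 156 of the 10866 tested genes (1.44%), whereas edgeR called none, and no adjusted p of edgeR was below 0.397. With 3 dams in each group the exact two-sided permutation test cannot go below p = 0.1, the value for *Mup7*, *Mup11*, *Mup17* and *Mup1*.

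The 4 remaining near-identical genes had few reads. *Mup22*, the only one of them above the FPKM minimum, had 8, 31 and 22 reads in KPF replicates 1, 2 and 3 and 5, 14 and 36 reads in WPF replicates 2, 3 and 4, so the groups overlapped (log2 0.65 ± 0.68 SE, adjusted p = 0.746 from edgeR). Without WPF replicate 4, the highest of its group, the log2 fold change was 1.37 (adjusted p = 0.522 from edgeR). *Mup1*, below the minimum, had 13, 17 and 9 reads in KPF and 4, 5 and 5 reads in WPF without overlap (log2 1.84 ± 0.51 SE, unadjusted p = 0.00771 from edgeR, no adjusted p). *Mup10* had 1, 12 and 16 reads against 1, 1 and 7 reads, with 1 low KPF library inside the WPF range (log2 2.11 ± 1.03 SE, unadjusted p = 0.0757 from edgeR). Its log2 fold change was 3.35 without WPF replicate 4 and 2.63 without KPF replicate 1, where the unadjusted p of edgeR was 0.0368 and 0.0157, and 1.501 without KPF replicate 3. *Mup2*, with 1, 2 and 3 reads against 1, 3 and 0 reads, was too low for a fold change.

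*Mup20* (chr4:61968471-61972395, minus strand), the darcin gene, was at 26.6, 9.55 and 15.4 CPM in the KPF libraries (replicates 1, 2 and 3), against 3.98, 6.11 and 44.2 CPM in the WPF libraries (replicates 2, 3 and 4). The highest of the 6 libraries was WPF replicate 4, and the lowest were the other WPF libraries. With all libraries the log2 fold change was -0.08 ± 0.86 (SE, adjusted p = 0.976 from edgeR). Without WPF replicate 4 it was 1.75 (edgeR, adjusted p = 0.297 and unadjusted 0.00933), and without KPF replicate 2 it was 0.20. That library also had the lowest *Fasn* and the highest *Mup7* and *Mup11* of the WPF group, and its part in the result beyond these values was not tested.

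*Mup21* (chr4:62066169-62069100, minus strand), which had 6 annotated exons where the other members had 7, was at 11.3, 7.08 and 64.3 CPM in KPF, against 22.6, 16.7 and 38.4 CPM in WPF, with the replicates in the same order. KPF replicate 3 was above all WPF libraries and the other KPF libraries were below them. The log2 fold change was 0.09 ± 0.77 (SE, adjusted p = 0.972 from edgeR). Without KPF replicate 3 it was -1.50 (edgeR, adjusted p = 0.228 and unadjusted 0.0111), and with plain library totals it was -0.14. The highest libraries of *Mup21* and *Mup20* were thus in different groups, and neither gene had a direction that held when each library was left out.

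**Figure D3:**
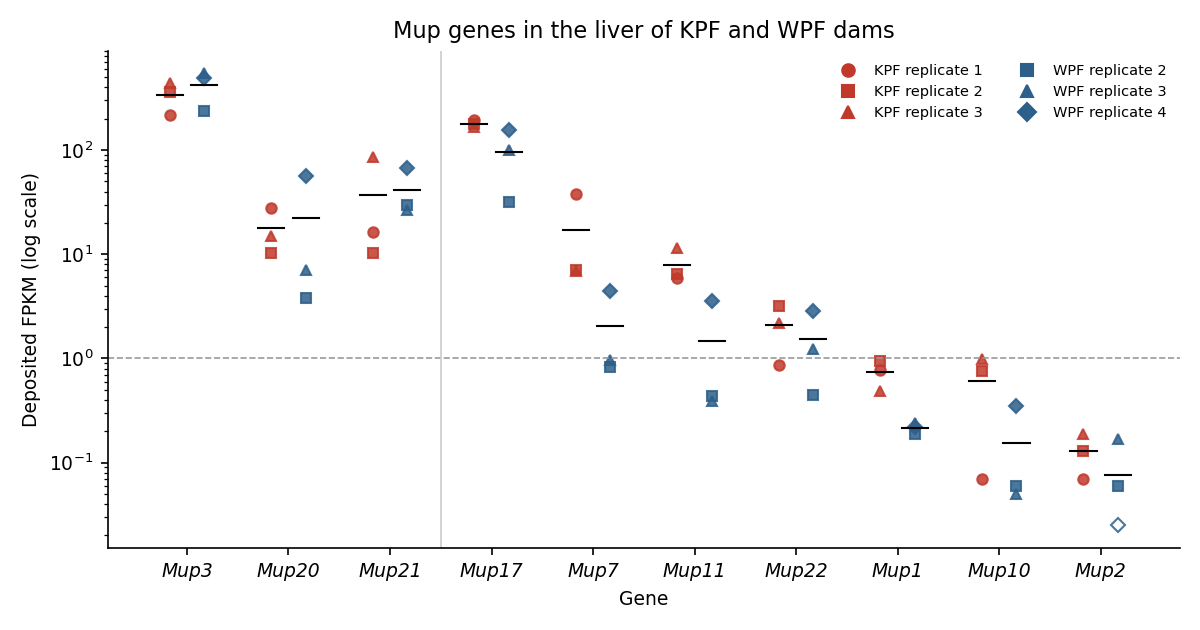
Deposited FPKM (y axis, log scale) of each *Mup* gene in the 3 KPF (red) and 3 WPF (blue) libraries, with black bars for the group means, *Mup3*, *Mup20* and *Mup21* left of the grey line and the near-identical genes right of it. The open symbol is a value of 0 drawn at the bottom and the dashed line is the minimum mean of 1 FPKM. KPF and WPF points do not overlap for *Mup17*, *Mup7*, *Mup11* and *Mup1* and overlap for the others.

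In the order of mean FPKM over the 6 libraries, *Mup3* (382) was followed by *Mup17* (137), *Mup21* (39.3), *Mup20* (20.04), *Mup7* (9.63), *Mup11* (4.70), *Mup22* (1.80), *Mup1* (0.475), *Mup10* (0.380) and *Mup2* (0.103). *Mup3* was above *Mup17* in every library and *Mup17* above every lower member. In KPF replicate 1, *Mup7* (37.6) was above *Mup20* (28.1), and *Mup20* was above *Mup21* (16.4). The ranges of *Mup21*, *Mup20*, *Mup7* and *Mup11* overlapped. The order of the near-identical genes also depends on how many reads the counting could assign to each.

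Of the 10 members, 7 had a mean FPKM of at least 1 and entered the test over all 10866 such genes. None of them had an adjusted p under 0.05 in edgeR or in limma on log2(FPKM + 1), against 2 in DESeq2, and 0 of all tested genes (0%) did in edgeR. By the rule of p under 0.05 before adjustment together with a 1.5-fold difference, which 9.82% of all tested genes passed in either direction, 3 members were higher in KPF (*Mup7*, *Mup11* and *Mup17*) and 0 were lower, where 5.83% of all tested genes passed as higher and 3.98% as lower. In 3 of the 7 tested members every KPF library was above every WPF library, against 7.55% of all tested genes, and in 0 every KPF library was below, against 8.15%. The median log2 fold change was 0.65 over the tested members and 0.02 over all tested genes. These counts describe genes that share reads and were looked at with earlier results known, and all 3 are near-identical copies. WPF replicate 2 was the lowest library in 3 of the 7 tested members and in 13.5% of all tested genes. In a whole liver, a different share of hepatocytes and a different amount of *Mup* RNA in each cannot be told apart.

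**Figure D4:**
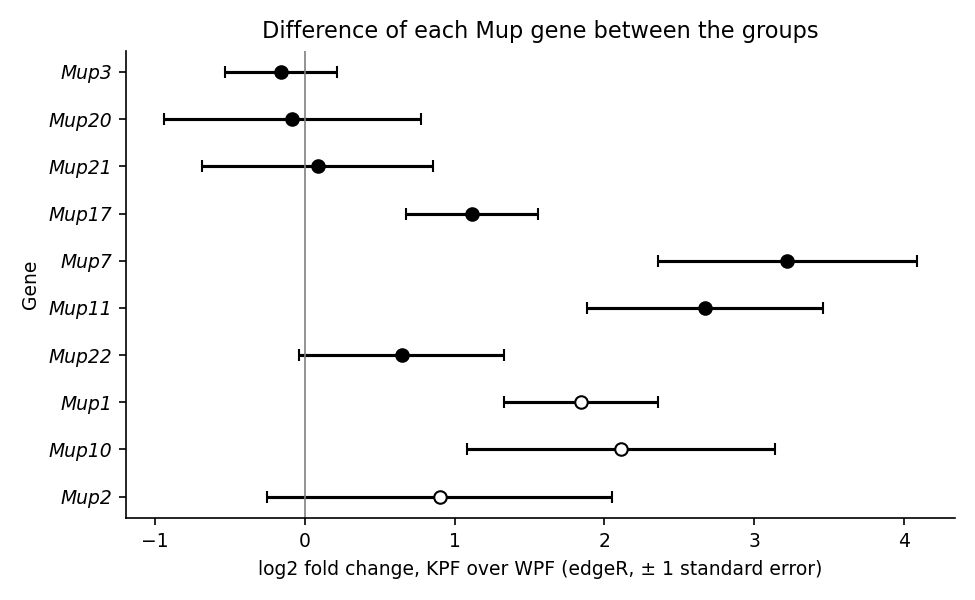
Log2 fold change of each *Mup* gene, KPF over WPF, from edgeR (x axis), with bars of ± 1 standard error, filled points for tested genes and open points for genes below the FPKM minimum. *Mup3*, *Mup20* and *Mup21* lie at 0 within their error, and *Mup7*, *Mup11* and *Mup17* lie at 3.22, 2.67 and 1.12.

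If reads that fit several of the 7 near-identical genes were split among them, their sum does not depend on the split. If such reads were dropped, they are missing from the sum too. Reads shared with other copies bear on it in either case. The 7 are the near-identical genes among those chosen by name, and the sum leaves out other copies that were about as similar. By coding sequence, *Mup18*, with 351.5 mean reads, was 99.8% identical to *Mup11* and to *Mup22*. *Mup12* was 99.6% identical to *Mup1*, whereas *Mup4*, *Mup5* and *Mup6* were 88.7%, 90.2% and 89.6% identical to it. Summed over the 7 near-identical members, the KPF libraries held 236, 188 and 204 CPM and the WPF libraries 35.6, 88.5 and 133 CPM. The groups did not overlap, with the KPF libraries close together and the WPF libraries spread widely. The mean was 209 ± 24.6 CPM (SD, n = 3) in KPF and 85.8 ± 48.9 CPM in WPF, a ratio of 2.44 (log2 1.29), which stayed between 0.92 and 1.75 on the log2 scale without each library in turn. *Mup17* accounts for most of this sum. For *Mup3*, *Mup20* and *Mup21* together, the libraries held 273, 402 and 599 CPM in KPF and 311, 561 and 532 CPM in WPF, with overlap (log2 -0.14).

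All 10 members together took between 0.0309% and 0.0783% of the counted reads of a library. The sum was 509, 590 and 802 CPM in KPF and 346, 649 and 665 CPM in WPF, with overlap and a log2 ratio of 0.20, which lay between -0.05 and 0.35 without each library in turn. The make-up of the sum was followed by the share of each gene. *Mup3* held 46.2%, 65.3% and 64.7% of the members' reads in KPF replicates 1, 2 and 3 and 82.0%, 82.9% and 67.6% in WPF replicates 2, 3 and 4, so that every KPF share was below every WPF share. *Mup17* held 36.3%, 27.9% and 21.3% in KPF and 9.51%, 13.2% and 18.3% in WPF. WPF replicate 4 lay nearest to the KPF libraries in both shares. As the members were chosen with earlier results known, these sums and shares were not tested.

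Setting the reads against those of *Mup3* in the same library removes the scaling between libraries. The near-identical genes together had 1.00, 0.488 and 0.393 times the reads of *Mup3* in KPF replicates 1, 2 and 3 and 0.125, 0.165 and 0.297 times in WPF replicates 2, 3 and 4. *Mup17* alone had 0.787, 0.428 and 0.329 times in KPF and 0.116, 0.159 and 0.271 times in WPF. Neither pair of groups overlapped. For *Mup20* the ratios of 0.113, 0.0248 and 0.0296 in KPF and 0.0140, 0.0114 and 0.0983 in WPF overlapped, as did those of *Mup21*, at 0.0482, 0.0184 and 0.124 in KPF and 0.0797, 0.0311 and 0.0854 in WPF. A ratio within a library shows unequal change of its genes and does not say which of them moved.

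**Figure D5:**
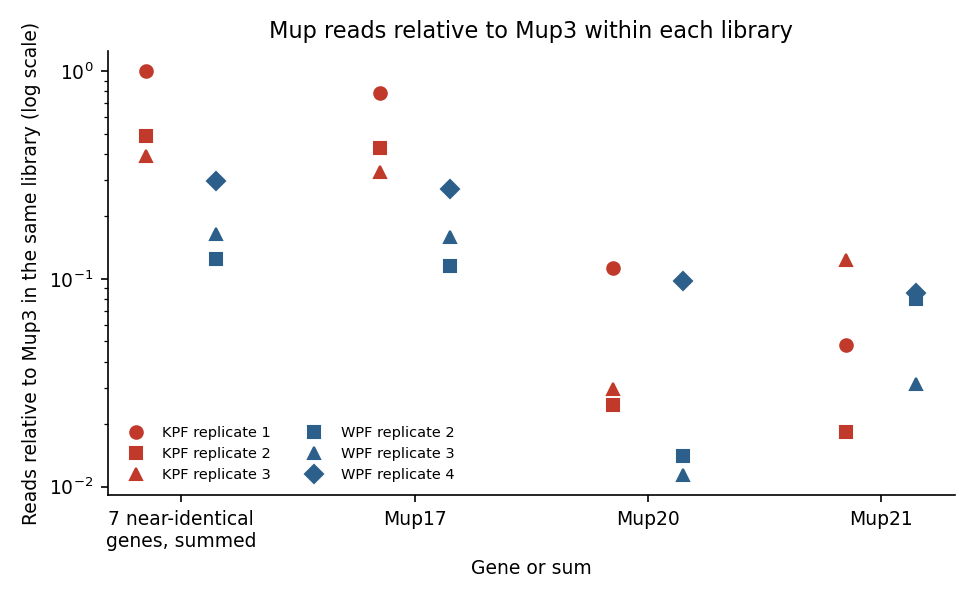
Reads of the 7 summed near-identical genes, of *Mup17*, of *Mup20* and of *Mup21* divided by the reads of *Mup3* in the same library (y axis, log scale), with KPF libraries in red and WPF libraries in blue. For the near-identical sum and *Mup17* the KPF points, from 0.393 and 0.329 upward, are above all WPF points, and for *Mup20* and *Mup21* the groups overlap.

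Across the 6 libraries, Pearson's r of log2(CPM + 1) was 0.777 between *Mup7* and *Mup11*, 0.781 between *Mup7* and *Mup17* and 0.837 between *Mup11* and *Mup17*. These genes share reads and group, so the values are a description. *Mup3* had r = 0.155 with *Mup17* and -0.468 with *Mup7*. Outside the *Mup* family, the tested genes most like the summed *Mup* reads over the 6 libraries were *Cnot3* (r = 0.997), *Fcgr3* (0.991), *Prrc2c* (0.989), *Kansl1* (0.989) and *Kat6a* (0.979). Their levels followed the low value of WPF replicate 2 and the high value of KPF replicate 3. *Cnot3* lay between 17.9 and 28.8 CPM and *Fcgr3* between 2.51 and 5.28 CPM. These genes were picked as the highest of all tested genes over only 6 libraries, so values of r this high come with the choice. *Mup3* held the largest share of the summed reads in every library.

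The other *Mup* loci were taken by counts and ranges. Of the 12 other protein-coding genes, 1 had no read and 5 were tested. The 3 that passed the unadjusted rule as higher in KPF were *Mup15* (log2 1.74), *Mup18* (2.50) and *Mup19* (1.11), and 0 passed as lower. Of all tested genes, 5.83% passed as higher and 3.98% as lower. None of the 5 had an adjusted p under 0.05 in edgeR. Windows found in no other gene made up 9.28% of *Mup15* and 0.9% of *Mup19*, and the groups of *Mup19* overlapped. The log2 fold changes of the 5 tested genes ran from -0.35 to 2.50. *Mup18*, the one with the most reads, had 525, 311 and 844 reads in KPF replicates 1, 2 and 3 and 17, 187 and 225 reads in WPF replicates 2, 3 and 4, and 13.7% of its windows were found in no other gene. Of 27 pseudogenes, 13 had no read and 4 were tested, with log2 fold changes between 0.40 and 2.06 and 0 past the rule. Adding all 22 protein-coding genes, a sum chosen after seeing the data, gave a log2 ratio of 0.30 with overlap.

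The members lie on the minus strand of chromosome 4. The near-identical genes are spread between 60066469 (*Mup7*) and 61514108 (*Mup17*), and *Mup20*, *Mup3* and *Mup21* follow each other between 61968471 and 62069100. The 250 bases before the gene start were at hand for 7 members (RefSeq, GRCm38.p6), and 3 promoters are shown, of a gene that was higher in KPF by DESeq2, of the near-identical gene with the most reads and of the most expressed gene whose groups overlapped. Capitals mark the longest run common to all 7, of 13 bases.
Mup11: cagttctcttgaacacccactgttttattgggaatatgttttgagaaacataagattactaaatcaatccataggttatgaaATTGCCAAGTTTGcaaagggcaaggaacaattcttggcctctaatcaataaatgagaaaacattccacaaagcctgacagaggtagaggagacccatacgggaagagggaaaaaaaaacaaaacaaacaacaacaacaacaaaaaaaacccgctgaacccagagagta
Mup17: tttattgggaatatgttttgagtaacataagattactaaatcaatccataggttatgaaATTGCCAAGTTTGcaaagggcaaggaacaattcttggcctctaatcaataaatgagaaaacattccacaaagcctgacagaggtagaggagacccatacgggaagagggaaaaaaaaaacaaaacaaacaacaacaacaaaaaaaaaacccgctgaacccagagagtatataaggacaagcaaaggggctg
Mup3: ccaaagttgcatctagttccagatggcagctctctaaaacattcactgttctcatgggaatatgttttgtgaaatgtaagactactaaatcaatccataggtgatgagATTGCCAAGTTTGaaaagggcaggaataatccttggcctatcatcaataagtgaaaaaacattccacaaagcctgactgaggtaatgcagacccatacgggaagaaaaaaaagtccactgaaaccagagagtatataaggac
They are chr4:60662396-60662645 for *Mup11*, chr4:61595833-61596082 for *Mup17* and chr4:62087318-62087567 for *Mup3*, all on the minus strand of GRCm38.p6. The 13 bases, searched on the strand of the gene, were found in 12 of 32851 promoters of this length, the 7 members included. The motif TTCNNNGAA, the form bound by STAT5 and the same on both strands, was found in none of the 7 members' promoters and in 7.02% of all promoters. The promoters of *Mup3* and *Mup21* were 89.1% identical, those of *Mup11* and *Mup17* 82.1% and those of *Mup3* and *Mup17* 58.9%, which partly follows where each annotated start lies. The data of this comparison do not measure binding at these sequences.

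Growth hormone and prolactin act on hepatocytes through receptors that signal by JAK2 and STAT5. Growth hormone is among the hormones known to act on *Mup* expression, as are thyroid hormone, glucocorticoids and androgens. Of 17 genes of receptor signalling, 16 were tested, and 0 passed the unadjusted rule in either direction (median log2 fold change 0.07). For this list and those below, 5.83% of all tested genes passed the same rule as higher and 3.98% as lower. *Ghr*, the growth hormone receptor, was at 744, 405 and 1621 CPM in KPF and 742, 826 and 1142 CPM in WPF, with overlap (log2 0.03 ± 0.50 SE). *Prlr*, the prolactin receptor, had a log2 fold change of 0.13 and *Stat5b* of -0.38. Among targets of the pathway, *Igf1*, which encodes the circulating growth factor, was at 1039, 1559 and 812 CPM in KPF and 809, 768 and 724 CPM in WPF. Its groups did not overlap by a narrow margin (log2 0.57 ± 0.31 SE, adjusted p = 0.536 from edgeR). The feedback inhibitors *Socs2* (log2 -0.06) and *Cish* (0.16) had values near 0.

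Of 17 male-biased liver genes, 10 were tested, 1 was past the rule as higher and 0 as lower (median log2 0.34). The former was *Bcl6*, which encodes a repressor of female-biased genes, at 6.19, 12.6 and 7.11 CPM in KPF and 5.19, 4.36 and 5.04 CPM in WPF (log2 0.83 ± 0.33 SE, unadjusted p = 0.0396 and adjusted p = 0.451 in edgeR). *Cyp2d9*, a steroid hydroxylase, had a log2 fold change of 0.37. *Serpina12* had the opposite order, with every KPF library below every WPF library, at 9.24, 3.54 and 8.45 CPM against 9.42, 14.3 and 15.6 CPM (log2 -0.89 ± 0.39 SE, unadjusted p = 0.0550 and adjusted p = 0.464 in edgeR). *Gstp1* (log2 -0.56) and *Nudt7* (-0.47) also had values below 0, with overlap, and the other 7 tested genes of the list had values above 0. *Cyp4a12a*, *Elovl3* and *Hsd3b5* were below the FPKM minimum. *Hsd3b5* had 12, 15 and 22 reads in KPF and 3, 0 and 9 reads in WPF (log2 2.46 ± 0.87 SE, unadjusted p = 0.0239 from edgeR).

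Female-biased genes had values in both directions. Of 21, 19 were tested, 3 were past the rule as higher and 1 as lower (median log2 -0.37). *Cyp2a4*, a steroid hydroxylase, was lower in KPF, at 391, 418 and 571 CPM against 1013, 987 and 1287 CPM (log2 -1.25 ± 0.28 SE, adjusted p = 0.416 from edgeR). Its relative *Cyp2a22* was higher, at 616, 713 and 329 CPM against 157, 161 and 232 CPM (log2 1.59 ± 0.36 SE, adjusted p = 0.416). *Cyp2b13* (log2 2.01) and *Sult3a1* (0.87) were the other higher genes, and their groups overlapped. *Cux2*, which encodes a factor found in female liver, had a log2 fold change of -0.64 (unadjusted p = 0.0953 from edgeR) with overlap, *A1bg* of -0.63, *Cyp3a41a* of -0.79 and *Cyp2b9* of 0.86.

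Of 17 transcription factors tied to *Mup* genes, 16 were tested and only *Bcl6* passed the unadjusted rule (median log2 0.03). *Hnf4a*, which encodes a main hepatocyte factor, had a log2 fold change of 0.22 and *Cebpa* of 0.03. Of 15 other lipocalins and plasma carriers, 13 were tested, 2 passed as higher and 0 as lower (median log2 -0.06). *Lcn2*, an acute-phase lipocalin, was at 49.5, 20.1 and 10.6 CPM in KPF and 8.47, 9.77 and 12.0 CPM in WPF (log2 1.41). *Orm3* was at 12.1, 320 and 7.11 CPM in KPF and 5.01, 3.79 and 2.69 CPM in WPF (log2 4.89), a difference led by KPF replicate 2. *Rbp4*, the retinol carrier, had a log2 fold change of -0.19 and *Alb* of -0.56.

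Markers of cell types were counted in the same libraries, where 5.83% of all tested genes passed the unadjusted rule as higher and 3.98% as lower. The 12 hepatocyte markers summed to 87300 to 115200 CPM in KPF and 113600 to 186400 CPM in WPF, and 0 passed as higher and 1, *Apoa2* (log2 -0.79), as lower. Of 11 stellate and fibroblast markers, 4 passed as higher in KPF (*Reln*, *Col1a1*, *Col1a2* and *Col3a1*) and 0 as lower, with sums of 344 to 733 CPM in KPF and 302 to 321 CPM in WPF. Of 6 adipocyte and mesothelium markers, 2 were tested and both passed as higher (*Cfd* and *Msln*), with sums of 3.17 to 29.9 CPM against 0.761 to 2.67 CPM, and *Lep* had no read. Of 9 sinusoidal endothelial markers, 1 (*Pecam1*) passed as higher, with sums of 189 to 301 CPM in KPF and 175 to 215 CPM in WPF. Of 10 Kupffer and macrophage markers, 0 passed, with sums of 189 to 258 and 188 to 368 CPM, and of 6 cholangiocyte markers 2 were tested and 0 passed, with sums of 26.8 to 35.7 and 24.7 to 51.5 CPM.

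*Col1a1*, *Col1a2*, *Col3a1*, *Cfd* and *Msln* thus passed as higher in KPF, as did *Mup7*, *Mup11* and *Mup17*. The groups of *Msln* overlapped, and *Cfd* ran from 1.25 to 17.25 CPM within KPF. The part of these markers in the *Mup* results was not tested. Among markers of the lobule, 7 of 8 pericentral genes were tested and 1 passed as lower (*Axin2*, log2 -1.27), and of 8 periportal genes 1 passed as higher (*Pck1*, log2 1.85, with 1721 CPM in KPF replicate 2 against 266 and 322 CPM in the other KPF libraries). No list gene had an adjusted p under 0.05 in edgeR.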

How the data were processed

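Poly(A) RNA of 6 dam livers was sequenced with paired-end reads of 150 bases. The authors deposited 1 table with the raw read count of each gene and its FPKM. The submitters' processing notes name cutadapt 1.9.1, HISAT2 2.2.1, HTSeq 0.6.1, DESeq2 and GRCm39, without roles or settings. The deposited FPKM equal count over exonic length and library total within 0.005. Symbols came from GENCODE M21 (52073 of 56691 IDs matched, 4618 did not).

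Counts were tested with edgeR 4.0.16 (quasi-likelihood, TMM factors 0.891 to 1.18, R 4.3.3), KPF against WPF, over 10866 genes (mean FPKM 1 or more), with Benjamini-Hochberg adjustment. Members below the minimum were fitted with them and have no adjusted p. The SE given with edgeR was the absolute log2 fold change divided by the square root of the test's F statistic. Alternatives were DESeq2 1.42.0, limma 3.58.1 with pseudocounts of 1 and 0.1, other scalings and filters, leaving out each library and the replicate number as a block. The scripts were tested on simulated data. Dams are separate animals. No libraries of a group were alike (chi-square per gene at least 39.6). Replicate numbers 2 and 3 occur in both groups, and deviations from the group means correlated by 0.0348 and 0.000337, so no pairing by number was seen. With so few dams, these correlations cannot exclude that dams of the same number were handled together. Depth limits genes with few reads.

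Coding sequences were taken from GENCODE M21. Percent identities of coding sequences and promoters came from global pairwise alignment with Biopython 1.88 (Python 3.11.15). The window of 60 coding bases came from an alignment of the 10 members with MAFFT 7.526, and figures were made with matplotlib 3.10.9. Coding sequences replaced protein sequences, which were not used here. Positions of the table and of the promoters are on different builds and were not combined. Members and lists were chosen with earlier results of these data known. Named were all members, a fixed set that included genes of the growth hormone axis and *Hsd3b5*, and the 5 genes most like the *Mup* sum. Tested list genes past an unadjusted p under 0.05 and 1.5-fold were named too. Below the FPKM minimum, *Ugt2b38*, *Cyp2b10*, *Apod*, *Plin1* and *Upk3b* also passed these limits, all higher in KPF, and were left out above. *Hnf4a*, *Cebpa*, *Serpina12*, *Gstp1*, *Nudt7*, *Mup4*, *Mup5*, *Mup6* and *Fasn* were named after their values were seen.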

Additional observations from a re-analysis of the deposited data

How the results depend on the processing

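*Mup7* and *Mup11* kept their direction and an unadjusted p under 0.05 in all 15 alternatives each. At an adjusted p under 0.05, 0 of the members were called by edgeR with a filter on low values, and 2 (*Mup7* and *Mup11*) were called by edgeR with no filter and 2 by DESeq2. In the unfiltered fit the adjusted p was 0.0110 for *Mup7* and 0.0190 for *Mup11*, and 286 of 26984 genes were called. Members past the unadjusted rule as higher in KPF were 3, with 5 when all genes with a read were fitted and 2 to 4 without each library in turn. In the fit of all genes with a read, all 10 members were tested, and 1576 of the 26984 genes were higher and 910 lower. Without each library in turn, 324 to 910 of the 10866 tested genes were higher and 246 to 709 lower. Members past the unadjusted rule as lower were 0, with 0 to 1 without each library in turn. Over all tested genes the rule gave 634 higher and 433 lower with TMM, 371 and 729 with library totals and 238 and 552 by limma on log2(FPKM + 1), and the median of all genes was 0.02 with TMM and -0.12 with library totals.

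The replicate number as a block gave 5 members as higher, where 680 of all 10866 tested genes were higher and 551 lower, and 28 list genes past the rule, and it rests on replicates 2 and 3 only. The log2 fold change in the block fit was 4.43 for *Mup11*, 3.03 for *Mup7*, 1.66 for *Mup17*, 1.79 for *Mup22* (unadjusted p = 0.0418 from edgeR) and 1.30 for *Mup20* (unadjusted p = 0.00319), which are the 5 members. *Mup3* was at 0.19, and its sign and that of *Mup20* were reversed. Below the FPKM minimum, *Mup10* was at 3.91 (unadjusted p = 0.0113 from edgeR) and *Mup1* at 1.69 (unadjusted p = 0.0790). The lists held 17 genes past the rule, against 34 with no filter and 8 with a minimum of 5 FPKM, where fewer genes are tested. Without each library in turn they held 10 to 24. Of the 10866 tested genes of the main fit, 9.82% passed the rule. With the minimum of 5 FPKM, 255 of 4757 tested genes were higher and 205 lower.

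Reversed values were those of genes whose groups overlapped. *Mup21* gave -0.14 with library totals, -0.59 and -0.62 by limma with pseudocounts of 1 and 0.1, -1.50 without KPF replicate 3, -0.00082 without WPF replicate 2 and -0.15 without WPF replicate 3. *Mup20* gave 0.41 and 0.49 by limma with pseudocounts of 1 and 0.1, 0.20 without KPF replicate 2 and 1.75 without WPF replicate 4. *Mup3* gave 0.093 without KPF replicate 1 and 0.05 without WPF replicate 3. Without each library in turn, *Mup21* ran from -1.50 to 0.53, *Mup20* from -0.55 to 1.75 and *Mup3* from -0.45 to 0.093. Beyond the libraries and fits named, the cause was not tested. Genes with under 20 reads in a library, which are *Mup1*, *Mup2*, *Mup10* and *Mup22* and also *Mup7* and *Mup11* in WPF replicates 2 and 3, are limited by depth.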
